A study of Mus musculus with 6 samples.

Results

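Protein kinase A (PKA) and the enzymes that limit its activator, cyclic AMP (cAMP), were followed at the transcript level through 10 genes, taken by symbol from the 45777 genes of the deposited table. They are the catalytic subunits Prkaca and Prkacb, the regulatory subunits Prkar1a, Prkar2a and Prkar2b, the anchoring protein gene Akap1, and the phosphodiesterase genes Pde3b, Pde4a, Pde4b and Pde4d. All 10 passed the filter on low counts, as did 17820 genes in all. Messenger RNA of epididymal white adipose tissue was sequenced from mice on a C57BL/6 background after a 24 h fast, in 2 groups of 3 libraries. The libraries labelled KO carry Adipoq-Cre together with loxP-flanked (flox/flox) alleles of Pak4, a serine/threonine kinase gene, and those labelled WT carry the flox/flox alleles without the Cre. Both groups therefore share the floxed alleles and the fast, and no group with Cre alone or fed mice was analysed here. Adipoq-Cre is driven by the adiponectin gene's promoter and acts in adipocytes, so the other cells of the fat pad keep Pak4 by design. The labels used here give no age. They number the replicates but do not tie a number to its own mouse, and p-values then cover only how far these libraries differ, which may be technical.

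In adipocytes, adrenergic receptors act through a stimulatory G protein on adenylyl cyclase, and the cAMP that is made binds the regulatory subunits of PKA and frees the catalytic subunits. The freed kinase phosphorylates hormone-sensitive lipase and perilipin 1, a step that drives lipolysis in fasting, and the transcription factor CREB. Phosphodiesterases break cAMP down, and PDE3B is the one through which insulin restrains lipolysis in fat cells.

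Pak4 itself, the check of the labels, had 815, 744 and 675 counts in the libraries labelled KO, against 339, 337 and 358 counts in those labelled WT. These counts cover the whole gene and are not limited to the loxP-flanked exons. The counts of the targeted gene thus went against the labels, with an adjusted p of 0.0898 in edgeR's quasi-likelihood test over all genes. Every direction below is between libraries by their labels, not between genotypes. Total counts ran from 62854465 to 72005658 per library. The first principal component put KO 1 at -0.22, between the other libraries labelled KO (-27.1 and -26.8) and those labelled WT (8.11 to 33.7). For the genes and lists read here, edgeR's calls are therefore also given without it where they change. KO 1 was picked from these same data as the library of its group nearest to the other label. Leaving it out sets the labels further apart, so calls made without it are no independent support. Over all genes, edgeR then called 379 higher and 637 lower, against 0 higher and 1 to 5 lower without each other library. For list and marker genes, fits without another library are not given. Adipoq, the adiponectin gene, averaged 5372 ± 909 and 4507 ± 568 CPM in the libraries labelled KO and WT, and 7 genes of epididymal epithelium and sperm had at most 31 counts in any library, with 3 of them at 0 in all. CPM here are counts per 1000000 after TMM scaling, given as mean ± SD with n = 3 per group, and fold changes are log2 values of KO-labelled over WT-labelled libraries ± SE.

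None of the 10 genes passed edgeR's quasi-likelihood test at an adjusted p of 0.05 over all genes, a threshold that 0.0168% of tested genes passed. By unadjusted p under 0.05, 0 of the 10 were higher and 3 were lower, namely Prkar2b, Pde4d and Prkaca, where 9.66% of all genes were higher and 9.71% lower. In the same 3 genes every library labelled KO lay under every library labelled WT, against 12.5% of all genes, and 0 of the 10 separated the other way, against 13.7%. The median log2 fold change was -0.13 over the 10 genes and 0.02 over all genes tested, and 7 of the 10 stood below 0, as did 47.9% of all genes. DESeq2 called Prkar2b and Pde4d lower and none of the 10 higher, where it called 4.27% of genes lower and 2.89% higher. Without the library KO 1, edgeR called these 2 genes lower and none of the 10 higher, where it called 3.49% of genes lower and 2.08% higher.

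**Figure D1:**
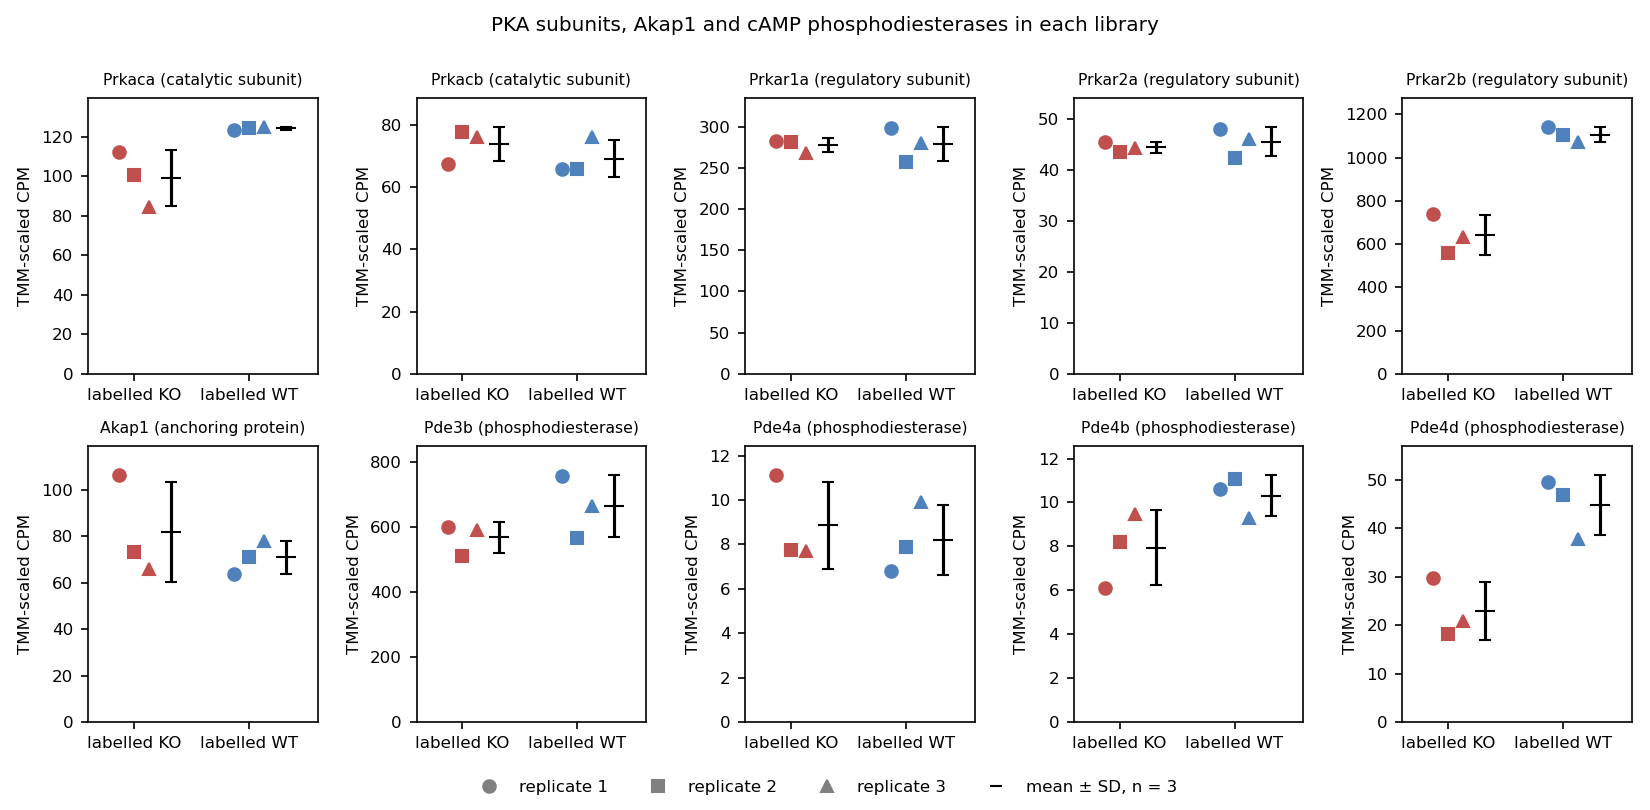
TMM-scaled CPM (vertical axes, each starting at 0) of the 10 genes in the 3 libraries labelled KO (red, left) and the 3 labelled WT (blue, right), with symbols for the replicate number and black bars for the mean ± SD. Prkar2b, Pde4d and Prkaca separate the labels, while Akap1, Pde4a and Pde4b have KO 1 farthest from the other libraries labelled KO.

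The level of the 10 genes, compared per length on the authors' deposited TPM, spanned from Prkar2b at 493 TPM to Pde4a at 3.66 TPM as means over the 6 libraries. Prkar2b was the most abundant, since its lowest library (333 TPM) lay above the highest of Pde3b (263 TPM), which came next at a mean of 218 TPM. Prkar1a followed at 144 TPM and Prkaca at 91.0 TPM, each with library values apart from its neighbours in the order. Akap1 (38.1 TPM) and Prkacb (31.0 TPM) overlapped with each other and lay apart from Prkar2a at 17.0 TPM. The PDE4 genes were the lowest, with Pde4d at 7.36, Pde4b at 4.04 and Pde4a at 3.66 TPM, and neighbours among them overlapped.

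Prkar2b encodes RII beta, the regulatory subunit that is abundant in adipose tissue and brain. It had 740, 557 and 631 CPM in the libraries labelled KO, against 1140, 1106 and 1071 CPM in those labelled WT. The groups did not overlap, and KO 1 was the nearest of its group to the libraries labelled WT. The means were 643 ± 92.4 and 1106 ± 34.1 CPM, a log2 fold change of -0.78 ± 0.14 (95% interval -1.10 to -0.46, edgeR's quasi-likelihood adjusted p 0.117). This p ranked 81 among the 17820 genes. The call turned on the test and on 1 library, with an adjusted p of 1.51e-06 in DESeq2 and of 0.0251 in edgeR without KO 1, where the log2 fold change was -0.90 ± 0.12; the adjusted p ranged from 1.51e-06 to 0.404 over the alternatives.

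The other regulatory subunits had overlapping groups. Prkar1a, which encodes RI alpha, a subunit found in most tissues, had 282, 282 and 268 CPM in the libraries labelled KO, against 299, 257 and 280 CPM in those labelled WT. Its log2 fold change of -0.01 ± 0.10 had a 95% interval of -0.24 to 0.23. Prkar2a, which encodes RII alpha, had 44.5 ± 1.04 CPM in the libraries labelled KO and 45.6 ± 2.85 CPM in those labelled WT, with a log2 fold change of -0.03 ± 0.08 and an interval of -0.23 to 0.16. The intervals of both genes end short of the interval of Prkar2b, although the difference between the subunits was not itself tested. Scaled by library size alone, which moves the median of all genes up by 0.12 on the log2 scale, Prkar1a stood at 0.11 and Prkar2a at 0.08. The difference of mean log2(TPM + 0.1), which carries no test, was 0.07 for Prkar1a and 0.03 for Prkar2a, also above 0.

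Among the catalytic subunits, Prkaca, which encodes C alpha, had 112, 101 and 84.3 CPM in the libraries labelled KO, against 124, 124 and 125 CPM in those labelled WT. The libraries labelled WT were nearly equal, and all 3 labelled KO lay under them with a wider spread. Its log2 fold change was -0.32 ± 0.12 (95% interval -0.59 to -0.06, adjusted p 0.204 in edgeR, 0.113 in DESeq2). Prkacb, which encodes C beta, had 67.5, 77.7 and 76.0 CPM in the libraries labelled KO, against 65.8, 65.7 and 75.9 CPM in those labelled WT. These groups overlapped, and the log2 fold change was 0.09 ± 0.10 with an interval of -0.14 to 0.32.

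The make-up of the regulatory transcripts differed between the labels in every library, as shares of the summed TPM of Prkar1a, Prkar2a and Prkar2b. Prkar2b took 69.2% ± 3.14 of this sum in the libraries labelled KO and 79.6% ± 0.820 in those labelled WT (SD, n = 3 each). Prkar1a took 27.6% ± 2.90 in the libraries labelled KO and 18.3% ± 0.742 in those labelled WT. Regulatory transcripts summed to 4.70 ± 0.497 times the catalytic ones in the libraries labelled KO and to 5.99 ± 0.295 times in those labelled WT, again with no overlap. Without Prkar2b the same ratio was 1.44 ± 0.0878 in the libraries labelled KO and 1.23 ± 0.0972 in those labelled WT, so the order of the labels turned round when this gene was left out. The share of Prkaca among catalytic transcripts, 71.5% ± 4.14 and 77.2% ± 1.40 in the libraries labelled KO and WT, overlapped. These shares are descriptions of transcripts and carry no test.

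**Figure D2:**
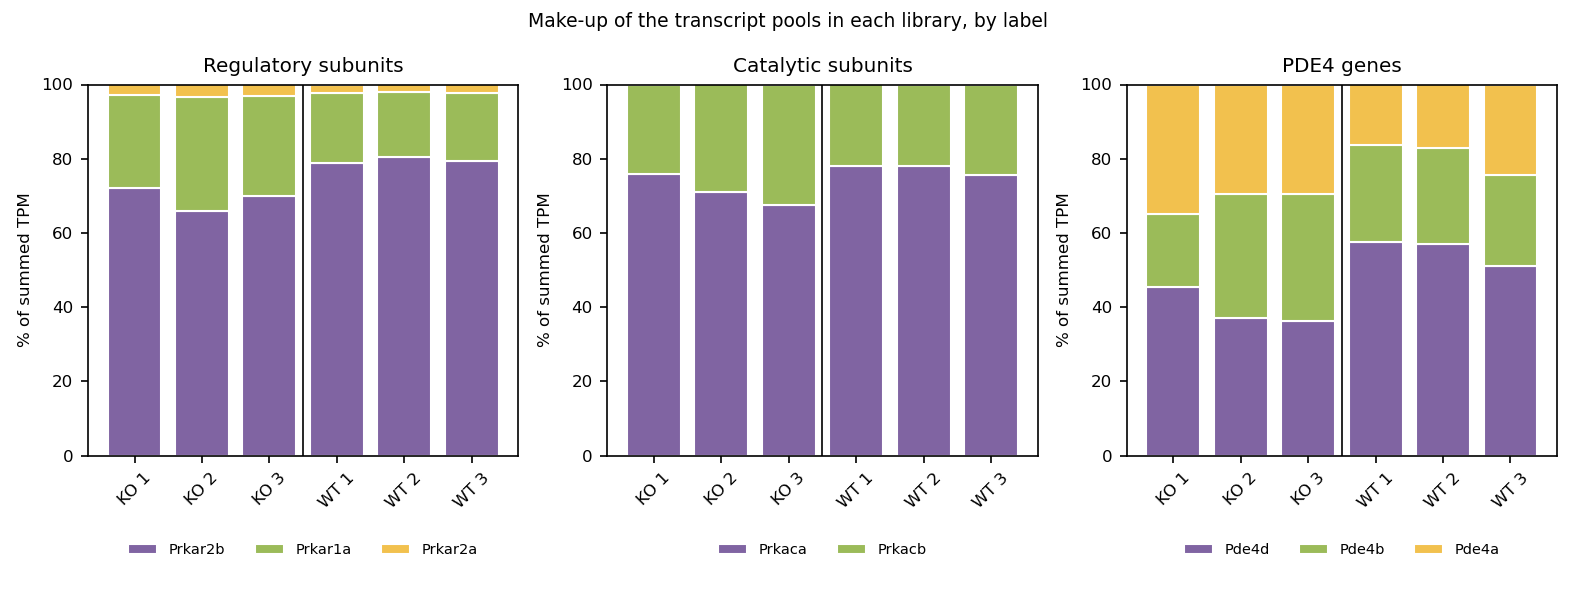
Stacked bars give each gene's percent of the summed deposited TPM (vertical axis, 0 to 100%) in each library, for regulatory subunits, catalytic subunits and PDE4 genes, with the libraries labelled KO left of the black line and those labelled WT right of it. The Prkar2b share runs from 65.8% to 72.0% in the libraries labelled KO and from 78.8% to 80.4% in those labelled WT, and the Pde4d share of PDE4 transcripts from 36.2% to 45.4% in the libraries labelled KO and from 51.1% to 57.4% in those labelled WT.

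Akap1 encodes an anchoring protein that holds PKA at the outer mitochondrial membrane. It had 106, 73.5 and 65.9 CPM in the libraries labelled KO, against 63.9, 71.0 and 77.9 CPM in those labelled WT. Only KO 1 lay outside the range of the libraries labelled WT. The log2 fold change was 0.21 ± 0.18 with all libraries (95% interval -0.21 to 0.63) and -0.03 ± 0.11 without KO 1, so its direction rests on that library.

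Pde4d had the largest fold change of the 10 genes. It encodes PDE4D, a cAMP-specific phosphodiesterase, and its short isoforms are known to be induced by cAMP itself. It had 29.7, 18.2 and 20.9 CPM in the libraries labelled KO, against 49.6, 47.0 and 37.9 CPM in those labelled WT. The groups did not overlap, with KO 1 again the nearest to the libraries labelled WT. The log2 fold change was -0.97 ± 0.19 (95% interval -1.42 to -0.52, edgeR's quasi-likelihood adjusted p 0.125), with an adjusted p of 4.96e-04 in DESeq2 and of 0.0240 in edgeR without KO 1, where the log2 fold change was -1.20 ± 0.14. Over the alternatives the adjusted p reached 0.410.

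Pde3b, whose product is the insulin-regulated phosphodiesterase of fat cells, had 600, 512 and 592 CPM in the libraries labelled KO, against 758, 567 and 666 CPM in those labelled WT. The groups overlapped through WT 2, and the log2 fold change was -0.22 ± 0.14 with a 95% interval of -0.56 to 0.11. By TPM, Pde3b made up 94.2% ± 0.299 of the transcripts of the 4 phosphodiesterase genes in the libraries labelled KO and 92.8% ± 1.33 in those labelled WT. The 4 genes together came to 218 ± 13.1 TPM in the libraries labelled KO and 248 ± 37.5 TPM in those labelled WT, which overlapped.

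Pde4b and Pde4a, which encode further cAMP-specific enzymes, did not separate the labels. Pde4b had 6.12, 8.21 and 9.49 CPM in the libraries labelled KO, against 10.6, 11.1 and 9.28 CPM in those labelled WT, a log2 fold change of -0.38 ± 0.17 (95% interval -0.78 to 0.02). Pde4a had 11.1, 7.75 and 7.70 CPM in the libraries labelled KO, against 6.81, 7.86 and 9.93 CPM in those labelled WT. KO 1 had the highest Pde4a and the lowest Pde4b of all 6 libraries. The log2 fold change of Pde4a was 0.11 ± 0.20 with all libraries and -0.09 ± 0.18 without KO 1. As a share of PDE4 transcripts by TPM, Pde4d made up 39.6% ± 5.05 in the libraries labelled KO and 55.2% ± 3.55 in those labelled WT, and the summed TPM of the 3 genes was 12.5 ± 1.21 in the libraries labelled KO and 17.6 ± 0.481 in those labelled WT, with no overlap in either.

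**Figure D3:**
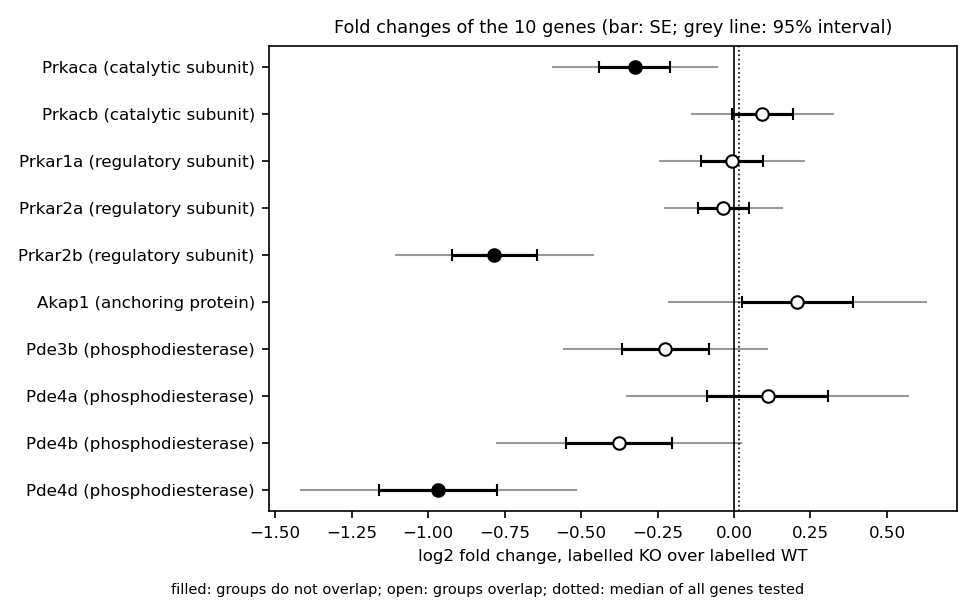
Points give the log2 fold change of KO-labelled over WT-labelled libraries (horizontal axis) for each gene with its role, black bars the SE and grey lines the 95% interval, from edgeR on 3 libraries per label. Filled points (Prkar2b, Pde4d and Prkaca) mark genes whose libraries do not overlap between labels, and their intervals lie below 0.

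All 10 genes were counted well above the filter, from 412 counts (Pde4b in KO 1) to 74154 counts (Prkar2b in WT 2) per library. Counting error alone is therefore at most 4.93% of a value, in Pde4b, and under 1% for Prkar2b, Pde3b and Prkar1a. PCR copies of a molecule count as separate reads, so this covers counting error only. No annotated exon of another gene overlapped an exon of the 10, and 1 near copy was found, Prkaca-ps1, a pseudogene 90.2% identical to Prkaca over 918 bases with 0 counts in every library.

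Short stretches of promoter are shown for the 3 genes whose groups did not overlap and for Prkar1a, which did not separate the labels. RefSeq windows (GRCm38.p6) held 25 start sites of 9 of the 10 genes, all but Pde3b. In the 250 bases before each start, 3 motifs were searched on both strands: the cAMP response element that CREB binds (TGACGTCA), the E-box CACGTG and the core of the glucocorticoid response element (ACANNNTGT). The first 3 lines give 30 bases with the motif in capitals, and the last gives the 250 bases before the outermost Pde4d start, which held none of the motifs. It was the only Pde4d start with a window, while GENCODE lists 20 transcripts of the gene. Starts further inside Pde4d were therefore not searched, so this does not show that the gene lacks these motifs. Positions are chr12:32061340-32061369 (minus strand) for Prkar2b, chr8:83972781-83972810 (plus) for Prkaca, chr11:109650889-109650918 (plus) for Prkar1a and chr13:108653927-108654176 (plus) for Pde4d.
Prkar2b: gtttccggggatCACGTGggcgcgcgggcg
Prkaca: ttctcggccaatCACGTGcgttcgcccgcc
Prkar1a: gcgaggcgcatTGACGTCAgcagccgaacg
Pde4d: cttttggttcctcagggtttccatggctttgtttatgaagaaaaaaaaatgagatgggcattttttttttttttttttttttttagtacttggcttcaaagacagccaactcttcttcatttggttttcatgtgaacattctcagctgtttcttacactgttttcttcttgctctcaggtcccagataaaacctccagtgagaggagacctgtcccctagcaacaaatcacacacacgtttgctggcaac

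An E-box was present before a start of 3 of the 9 genes (Prkar2b, Prkaca and Prkar1a), against 6.86% of the 27025 genes with a window, and the glucocorticoid core before a start of 3 (Prkaca, Pde4a and Prkar1a), against 6.76%. The cAMP response element was found in 1 of the 9, Prkar1a, against 1.77% of genes. Genes with several starts have more windows to match in. The windows before the starts shown were 75.6% G and C for Prkar2b, 68.8% for Prkaca, 61.6% for Prkar1a and 38.8% for Pde4d. The counts are totals per gene and do not say which start was used, and a match in letters is not a bound site.

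Other genes of the pathway were read from 9 lists. None of their tested genes passed edgeR's test over all genes. At an unadjusted p under 0.05, 9.66% of all genes tested were higher and 9.71% lower, and each list's counts are to be read beside these shares. Of 5 other PKA subunits and inhibitors, 0 were higher and 1 lower at an unadjusted p under 0.05 (median log2 fold change -0.08). This was Pkig, a PKA inhibitor, at 35.9, 26.8 and 26.3 CPM in the libraries labelled KO, against 36.0, 43.9 and 40.0 CPM in those labelled WT (-0.43 ± 0.14). KO 1 all but met WT 1 in this gene. Its adjusted p was 0.191 in edgeR with all libraries, 0.0898 in DESeq2 and 0.0381 in edgeR without KO 1.

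Of 20 further phosphodiesterase genes, 14 were tested, and 0 were higher and 3 lower at an unadjusted p under 0.05 (median 0.04). Among all genes, 9.66% were higher and 9.71% lower at that level. Pde7a, a cAMP-specific enzyme, had 30.4, 23.8 and 19.5 CPM in the libraries labelled KO, against 48.4, 65.4 and 44.0 CPM in those labelled WT. Its log2 fold change was -1.10 ± 0.20 (adjusted p 0.119 in edgeR, 8.48e-05 in DESeq2 and 0.0291 in edgeR without KO 1). Pde7b, its paralogue, stood at -0.64 ± 0.15 with groups that did not overlap. Its adjusted p was 0.145 in edgeR, 0.00916 in DESeq2 and 0.0781 in edgeR without KO 1. Pde2a, a cGMP-stimulated enzyme, had 47.8 ± 15.7 CPM in the libraries labelled KO and 81.8 ± 18.1 CPM in those labelled WT (-0.77 ± 0.25), and its groups overlapped. Its adjusted p was 0.192 in edgeR, 0.0348 in DESeq2 and 0.0363 in edgeR without KO 1.

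Upstream of cAMP, all 10 listed adenylyl cyclases were tested, with 0 higher and 1 lower at an unadjusted p under 0.05 (median -0.12). This 1 of 10 was near the 9.71% of all genes that were lower at that level. Adcy5 had 353, 222 and 179 CPM in the libraries labelled KO, against 345, 443 and 394 CPM in those labelled WT (-0.65 ± 0.25). KO 1 lay among the libraries labelled WT, and without it the log2 fold change was -0.98. The adjusted p of Adcy5 was 0.218 in edgeR with all libraries, 0.0759 in DESeq2 and 0.0301 in edgeR without KO 1. Of 5 G protein subunits of the cyclases (Gnas, Gnal, Gnai1, Gnai2 and Gnai3), 0 had an unadjusted p under 0.05. All 5 stood below 0 (median -0.23), as did 47.9% of all genes, from Gnas at -0.30 ± 0.14 to Gnai3 at -0.01 ± 0.08. The groups of 1, Gnas, did not overlap, against 12.5% of all genes that separated in this direction. Of 11 lipolytic and antilipolytic receptors, 8 were tested, and 0 were higher and 1 lower at an unadjusted p under 0.05 (median 0.09). This 1 of 8 stands beside 9.71% of all genes. Ptger3, which encodes the prostaglandin receptor EP3 that couples to inhibition of cyclase, had 27.7 ± 10.3 CPM in the libraries labelled KO and 54.4 ± 9.79 CPM in those labelled WT (-0.97 ± 0.26, adjusted p 0.164 in edgeR, 0.00733 in DESeq2 and 0.0240 in edgeR without KO 1).

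Anchoring proteins other than Akap1 had values on both sides of 0. Of 21 listed, 16 were tested, and 3 were higher and 0 lower at an unadjusted p under 0.05 (median 0.07). Among all genes, 9.66% were higher and 9.71% lower at that level. Akap8l and Akap8, which encode nuclear anchoring proteins, stood at 0.37 ± 0.09 and 0.37 ± 0.11. Akap5, which anchors PKA at the plasma membrane, had 2.71 ± 0.969 CPM in the libraries labelled KO and 1.10 ± 0.369 CPM in those labelled WT (1.30 ± 0.36). In edgeR the adjusted p was 0.144 for Akap8l, 0.169 for Akap8 and 0.158 for Akap5, and DESeq2 passed Akap8l (0.0166) and Akap5 (0.0194). Without KO 1, edgeR called 1 of the list higher, Akap5 (adjusted p 0.0461), and 2 lower, Akap2 at -1.72 ± 0.35 (0.0489) and Akap13 at -0.86 ± 0.17 (0.0456). With all libraries Akap2 stood at -1.11 ± 0.47 and Akap13 at -0.52 ± 0.26, both with overlapping groups. Their adjusted p was then 0.261 and 0.313 in edgeR, and 0.268 and 0.199 in DESeq2. RefSeq holds Akap2 as a part of Pakap, which the deposited table counts separately, so its values are uncertain.

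Of 10 CREB family and coactivator genes, 0 had an unadjusted p under 0.05 in either direction (median 0.06), and Creb1 itself stood at 0.19 ± 0.10. In 3 of the 10 (Creb1, Atf1 and Crtc2) every library labelled KO lay above every library labelled WT, against 13.7% of all genes, and 0 separated the other way. Of 5 cAMP effectors other than PKA that were tested, among 10 listed, 0 had an unadjusted p under 0.05 (median -0.23). At that level, 9.66% of all genes were higher and 9.71% lower. Of 5 genes of lipolysis acted on by PKA or working beside it, 0 were higher and 1 lower (median -0.14). Lipe, the hormone-sensitive lipase gene, stood at -0.37 ± 0.21 and Plin1, the perilipin 1 gene, at -0.14 ± 0.17, and the lower one was Pnpla2, the adipose triglyceride lipase gene (-0.48 ± 0.14, adjusted p 0.164 in edgeR and 7.42e-04 in DESeq2). Without KO 1, edgeR called 1 of the 5 lower, Lipe, at -0.62 ± 0.13 (adjusted p 0.0478), while Pnpla2 had an adjusted p of 0.0639 there. With all libraries Lipe had an adjusted p of 0.355 in edgeR and 0.251 in DESeq2.

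**Figure D4:**
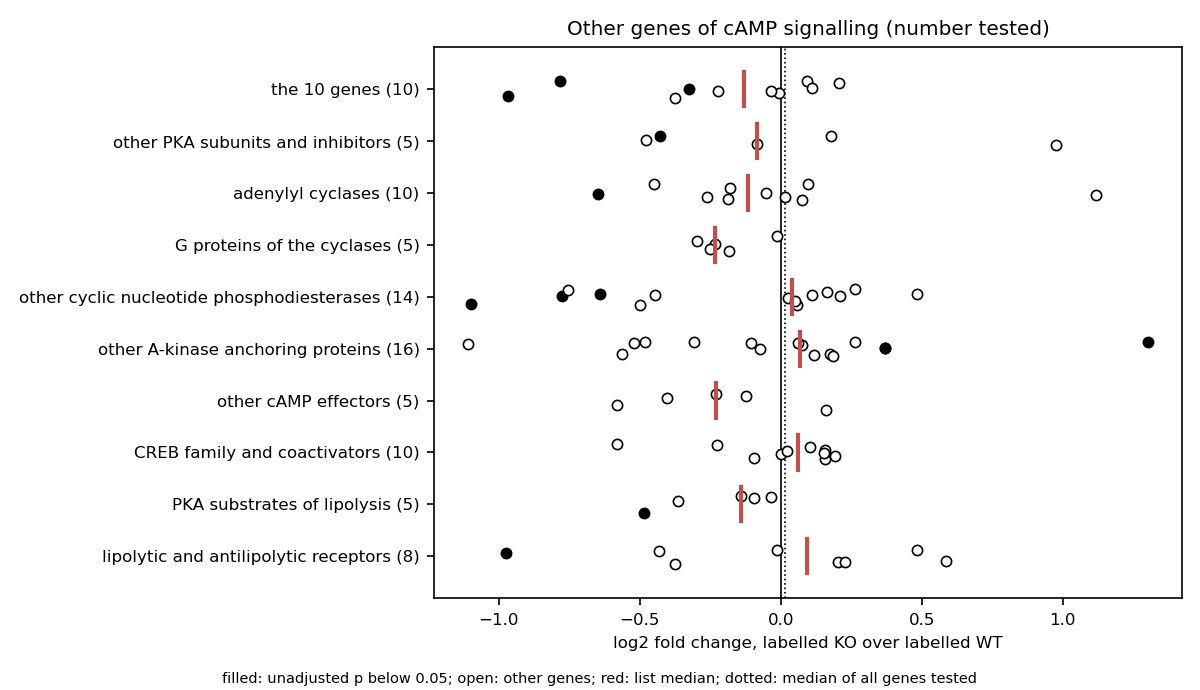
Each point is a gene's log2 fold change of KO-labelled over WT-labelled libraries (horizontal axis) in the 10 genes and the 9 lists, with the number tested in brackets, filled where the unadjusted p is under 0.05 in edgeR, and red lines give list medians. Pde7a at -1.10 lies beside Pde4d at -0.97, and the filled anchoring protein genes lie above 0.

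Cell type markers were read beside these values, since in bulk tissue fewer cells of a type and less RNA per cell cannot be told apart. The summed level of 10 mature adipocyte markers, all tested, overlapped between labels, at 56844 to 59017 CPM in the libraries labelled KO and 57721 to 63175 CPM in those labelled WT. Of these markers 7 stood below 0 (median log2 fold change -0.22), as did 47.9% of all genes. At an unadjusted p under 0.05, where 9.66% of all genes were higher and 9.71% lower, 1 marker was higher and 1 lower. The higher one was Cfd, the adipsin gene, at 15671 ± 2594 CPM in the libraries labelled KO and 7707 ± 3416 CPM in those labelled WT (1.02 ± 0.32). The lower one was Lpl, the lipoprotein lipase gene (-0.57 ± 0.17). Both were named after their values were seen. Cfd made up a large part of the summed level and rose where most of the markers fell. The overlap of the sums therefore does not mean that the other markers were alike between labels. Cfd is also 1 of the 10 markers in their mean log2 CPM, which it lifts in the libraries labelled KO. Values against this mean are lowered there to that extent, and the mean without Cfd is not given. Against the mean log2 CPM of these markers, Prkar2b lay at -1.93 ± 0.11 in the libraries labelled KO and at -1.22 ± 0.09 in those labelled WT, with no overlap. Pde4d lay at -6.76 ± 0.27 in the libraries labelled KO and at -5.86 ± 0.18 in those labelled WT, also apart. Prkaca lay at -4.63 ± 0.16 in the libraries labelled KO and at -4.38 ± 0.12 in those labelled WT, with KO 2 and WT 1 all but equal.

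Endothelial markers summed to 195 to 197 CPM in the libraries labelled KO and 227 to 301 CPM in those labelled WT, with 8 of 8 tested, 7 below 0 and 6 lower at an unadjusted p under 0.05. For this and the other marker lists, 9.66% of all genes were higher and 9.71% lower at that level. The other sums overlapped between labels, through KO 1 alone for macrophage, progenitor and fibroblast, mesothelial, and smooth muscle and pericyte markers. Macrophage markers summed to 1857 to 2513 CPM in the libraries labelled KO and 1744 to 2147 CPM in those labelled WT. Progenitor and fibroblast markers summed to 3927 to 5583 CPM in the libraries labelled KO and 4040 to 4371 CPM in those labelled WT. Mesothelial markers were at 739 to 920 CPM in the libraries labelled KO and 468 to 760 CPM in those labelled WT, and smooth muscle and pericyte markers at 233 to 492 CPM in the libraries labelled KO and 337 to 1664 CPM in those labelled WT. B cell markers (17.4 to 23.0 CPM in the libraries labelled KO and 7.39 to 22.6 CPM in those labelled WT) and T and NK cell markers (4.58 to 7.66 CPM in the libraries labelled KO and 4.54 to 7.61 CPM in those labelled WT) were low. At an unadjusted p under 0.05, 4 of 10 macrophage markers (median log2 fold change 0.26, 0 below 0), 3 of 6 mesothelial markers (0.53, 0 below 0), 3 of 8 progenitor and fibroblast markers (0.11, 3 below 0) and 1 of 5 B cell markers (0.54, 0 below 0) were higher and none lower. At the same level 2 of 8 smooth muscle and pericyte markers (median -0.17, 6 below 0) and 1 of 6 T and NK cell markers (-0.29, 4 below 0) were lower and none higher. None of the tested markers passed edgeR's test with all libraries. Without KO 1, edgeR called Plin4 and Lipe (adipocyte), Cdh5 and Cldn5 (endothelium) and Notch3 (smooth muscle and pericyte) lower. It called Itgam and Mrc1 (macrophage), Pdgfra and Dcn (progenitor and fibroblast) and Wt1 (mesothelium) higher. Their adjusted p there ran from 0.0262 to 0.0499, where edgeR called 3.49% of genes lower and 2.08% higher. With all libraries, DESeq2 did not pass Plin4 (adjusted p 0.304), Lipe (0.251) and Itgam (0.197), and passed the others named. The part of these cell types in the values of the 10 genes or of the other pathway genes was not tested.

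Genes most alike in pattern were sought for Prkar2b and Pde4d, by Pearson's r of log2 CPM over the 6 libraries among 12758 genes of at least 1 CPM. For Prkar2b these were Pxmp4, a peroxisomal membrane protein gene (r = 0.999), Clstn2, a calsyntenin (r = 0.996), and Ackr4, an atypical chemokine receptor (r = 0.994). Clstn2 had 10.4 ± 2.22 CPM in the libraries labelled KO and 23.4 ± 2.11 CPM in those labelled WT. For Pde4d they were Cdip1 (r = 0.996), Plce1, a phospholipase C (r = 0.996), and Fam120c (r = 0.993). Of the genes compared, 4.04% had r over 0.9 with Prkar2b and 3.90% with Pde4d, and 7 and 4 genes had r over 0.99. These r are descriptions over libraries that also differ by label.

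**Figure D5:**
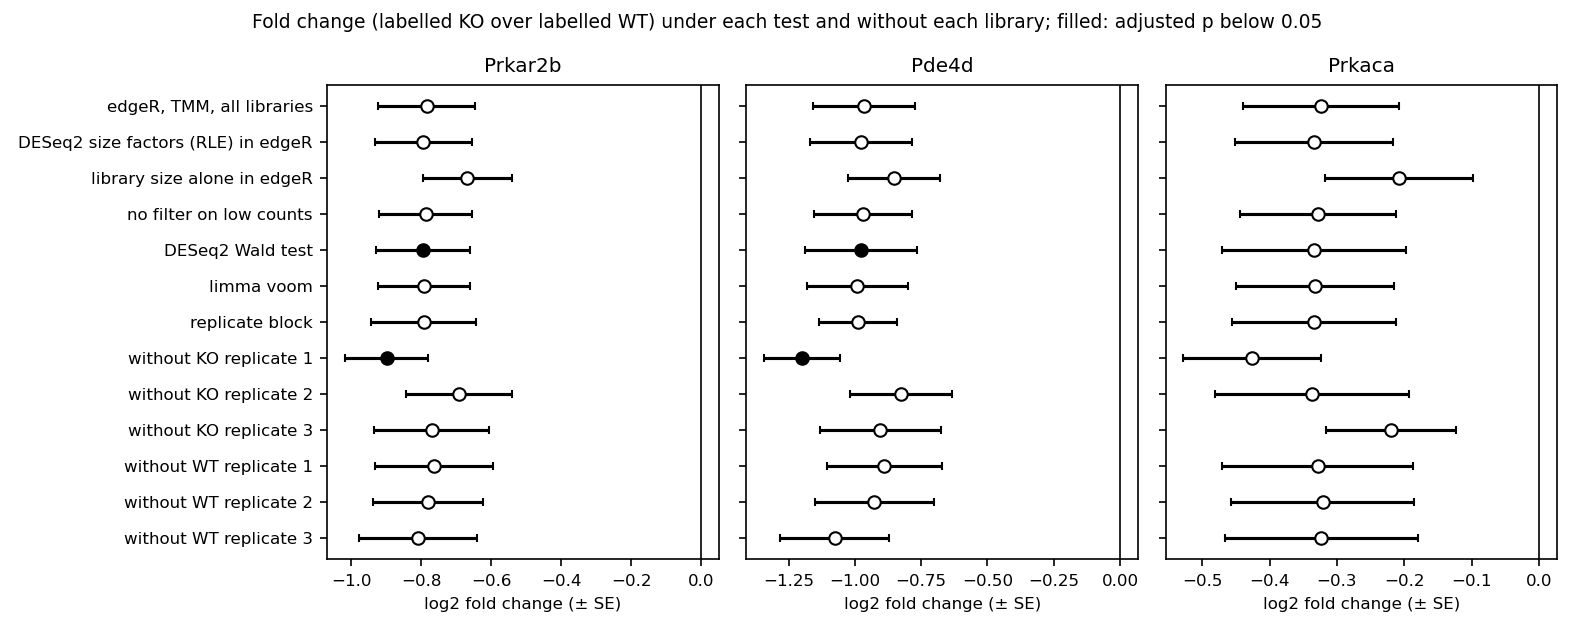
Log2 fold changes of KO-labelled over WT-labelled libraries ± SE (horizontal axes) of Prkar2b, Pde4d and Prkaca under each test, scaling and filter and without each library in turn, filled where the adjusted p is under 0.05. All points lie below 0, and the filled ones are DESeq2 and the fit without KO 1 for Prkar2b and Pde4d.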

How the data were processed

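Whole epididymal fat was kept in RNAlater, its total RNA was extracted with Trizol and stranded mRNA libraries were prepared, per the labels' protocols. The submitters' processing notes name HISAT2 2.1.0, Bowtie2 2.3.4.1, StringTie 2.1.3b and the build mm10, without role or order, and do not say whether counting used strand. The authors deposited read counts, FPKM and TPM per gene and library. The deposited counts entered every test, the deposited TPM gave levels and shares, and the deposited FPKM gave only the length behind a count. Libraries were grouped by title.

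Counts were filtered with filterByExpr (minimum count 10, minimum total 15), scaled by TMM and fitted on all 17820 genes with edgeR 4.0.16 (robust glmQLFit and glmQLFTest on the label alone, two-sided, Benjamini-Hochberg over all genes, R 4.3.3). The fit was tested on simulated data with the same spread set for every gene and no outlying library. That test therefore does not cover data in which a library stands apart, as KO 1 does here. The SE is the fold change divided by the square root of F. DESeq2 1.42.0, limma voom 3.58.1, other scalings, no filter, the replicate number as a block and each library left out were alternatives. The smallest two-sided p of an exact permutation with 3 libraries per label is 0.1. The members, lists and tests were chosen with earlier results of these data known. Up to 3 genes of each pathway list were named by the smallest unadjusted p under 0.05, and Adipoq, Creb1, Lipe and Plin1 for their roles. Gnas, Gnai3, Atf1, Crtc2, Akap2, Akap13, Cfd, Lpl and the markers called without KO 1 were named on their values. Near copies were sought with BLAST 2.17.0 at 90% identity over 200 bases, exons were those of the GENCODE annotation of GRCm38, and log2 CPM used a prior count of 2.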

Additional observations from a re-analysis of the deposited data

How the results depend on the processing

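Of 120 pairs of a member gene and an alternative with a test, 108 kept the direction and the side of the threshold, 4 newly passed and 8 changed sign; on TPM, with no test, 2 of 10 changed sign (Prkar1a at 0.075 and Prkar2a at 0.027). The 4 that passed were Prkar2b and Pde4d with DESeq2 and without KO 1, so that 2 members were called lower with DESeq2 and 0 to 2 when each library was left out. The sign changes were in Prkar1a and Prkar2a, both near 0, and in Akap1 and Pde4a, at 0.21 and 0.11 with all libraries. Akap1 changed sign only without KO 1. Prkar1a stood at 0.11 and Prkar2a at 0.082 with library size alone. With a library left out, Prkar1a ranged from -0.058 to 0.044, Prkar2a from -0.079 to 0.0046, Akap1 from -0.027 (without KO 1) to 0.34, and Pde4a from -0.087 (without KO 1) to 0.27. Over all genes, edgeR called 0 higher and 3 lower (1721 and 1730 at an unadjusted p under 0.05), DESeq2 465 and 687, and library size alone, no filter and limma voom each 1 higher. Leaving out each library gave 0 to 379 higher and 1 to 637 lower genes, the top of both without KO 1. The log2 fold change of Pak4 was 0.96 ± 0.14 in edgeR with all libraries, where it did not pass, and 0.95 with DESeq2, where it passed. With a library left out it was 0.85 to 1.06, and edgeR passed it only without KO 1 (adjusted p 0.0313). The labels do not say whether equal replicate numbers mark a pair. Deviations from the group means correlated at -0.17 to 0.05 between same-numbered libraries, and 1 of 6 libraries correlated best with its own number. With 3 libraries per label these values cannot settle whether the numbers pair the libraries. The replicate block gave 1 lower gene in all and called 0 members. The cause of these differences was not tested.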

Other observations

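Subunit genes of AMP-activated protein kinase, another kinase of fasting fat cells, had values on both sides of 0; they were picked after their values were seen. Prkab2, a regulatory beta subunit, had 23.2, 22.5 and 19.6 CPM in the libraries labelled KO, against 27.3, 43.5 and 36.8 CPM in those labelled WT (log2 fold change -0.72 ± 0.17, edgeR's quasi-likelihood adjusted p 0.144). Prkaa1, a catalytic subunit, had 67.3, 87.9 and 95.7 CPM in the libraries labelled KO, against 64.5, 57.1 and 63.0 CPM in those labelled WT (0.44 ± 0.14, adjusted p 0.173 in edgeR). Neither gene passed. The groups of neither overlapped, where 12.5% of all genes separated lower and 13.7% higher. Prkaa2, the other catalytic subunit, stood at -0.12 ± 0.14 with overlapping groups. Further subunit genes of this kinase are not given here.

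The transcript length implied by the deposited counts and FPKM varied in Pde4d, at 10170, 9511 and 9887 bases in the libraries labelled KO and 10260, 8925 and 9363 bases in those labelled WT. In Pde4a it ran from 4484 to 5144 bases, in Prkar1a from 3969 to 4240 and in Prkar2b from 3649 to 3773 bases over the 6 libraries. Part of this variation is shared between genes. Prkaca (2557 to 2625 bases), Prkacb, Akap1 and Pde3b were all lowest in WT 2 and highest in KO 1. A difference in isoforms was not tested. The log2 difference on deposited TPM was -0.96 for Pde4d and -0.72 for Prkar2b, beside -0.97 and -0.78 on counts.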
